A study of Mus musculus with 12 samples.

Results

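Cells from mouse joints met the BET inhibitor I-BET151 (I-BET in the labels) by 2 routes, in the culture dish (in vitro) or in the living animal (in vivo), and the 3 libraries of each route were compared with each other. These 6 of the 12 RNA sequencing libraries of the series were chosen by the treatment in their labels. Of the 55413 genes in the deposited table, the 16459 with a mean of at least 3 over the 12 libraries entered the comparison. Values are on the regularized log2 (rlog) scale, on which a difference of 1 is a doubling. How deeply each library was sequenced cannot be read from the table.

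All 6 cultures came from the left paws of BALB/c mice, an inbred strain, and these paws were primed: they had received monosodium urate (MSU) crystals, the crystals of gout, on day 0 and again on day 9. RNA was taken on day 18 from cells released with collagenase, pooled over 2 to 3 paws and grown for 5 passages, which the labels call synovial fibroblasts. For the in vivo group, mice were injected into the peritoneum with 20 mg/kg I-BET151 per day, starting 1 day before the first crystals, and the labels mention no inhibitor in the later culture of these cells. For the in vitro group, cultured cells were kept in 1 µM I-BET151 for the last 24 h before harvest, and what the donor mice received is not stated. The form and length of exposure therefore differed along with the route, and how long the in vivo cells had been without drug at harvest is not given. Primed cells of vehicle-treated mice (3 libraries) serve as a reference level (vehicle), and they and the 3 libraries of non-primed right paws, given crystals on day 9 alone, also enter the estimate of the spread. The labels do not say that the cultures of a group came from separate animals, so p-values measure the spread between these pooled cultures. Sex and age are not given.

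BET proteins bind acetylated histones through their bromodomains and bring the elongation kinase P-TEFb to genes, many of which are rapidly induced genes of inflammation. I-BET151 occupies the bromodomains and so loosens these proteins from chromatin. Synovial fibroblasts line the joint, make its matrix and lubricant, and release cytokines, chemokines and proteases when the joint is inflamed. NF-kB and the interferon-activated STAT factors are transcription factors behind much of that output.

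The in vivo libraries did not form a single group, and in vivo library 1 is therefore shown apart from in vivo libraries 2 and 3. In 15 melanocyte lineage markers, genes of pigment cells, the mean level was 5.68, 5.22 and 5.62 in the 3 in vitro libraries and 5.35 in in vivo library 1. It was 12.46 and 12.44 in in vivo libraries 2 and 3. The 3 non-primed vehicle libraries had that pigment profile too, with means of 13.77, 13.95 and 12.45. Across the tested genes, which are not independent replicates, non-primed library 3 correlated with in vivo libraries 2 and 3 at Pearson r = 0.983 and 0.980, and with the in vitro libraries at 0.825 to 0.833. Whether these profiles come from the cultures themselves or from a mix-up of labels or table columns cannot be told apart in the files. The mean of 10 fibroblast markers ran the other way, from 13.59, 14.03 and 13.63 in vitro and 13.81 in in vivo library 1 to 8.28 and 8.64 in the others. By these 2 lists, in vivo library 1 and the in vitro libraries had a fibroblast profile, while libraries 2 and 3 were led by pigment cell genes. The lists do not show that fibroblasts were the only cells, and macrophage transcripts are given below. In bulk RNA, fewer cells of a type and less RNA per cell cannot be told apart. Y-linked transcripts appeared in in vivo library 2 alone among the 6, with Ddx3y at 4.60 against -1.0 or lower in the other 5. Xist, which coats the inactive X chromosome, was at 8.60 in that library, 10.16 in in vivo library 3 and 13.68 to 14.47 in the other 4.

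**Figure D1:**
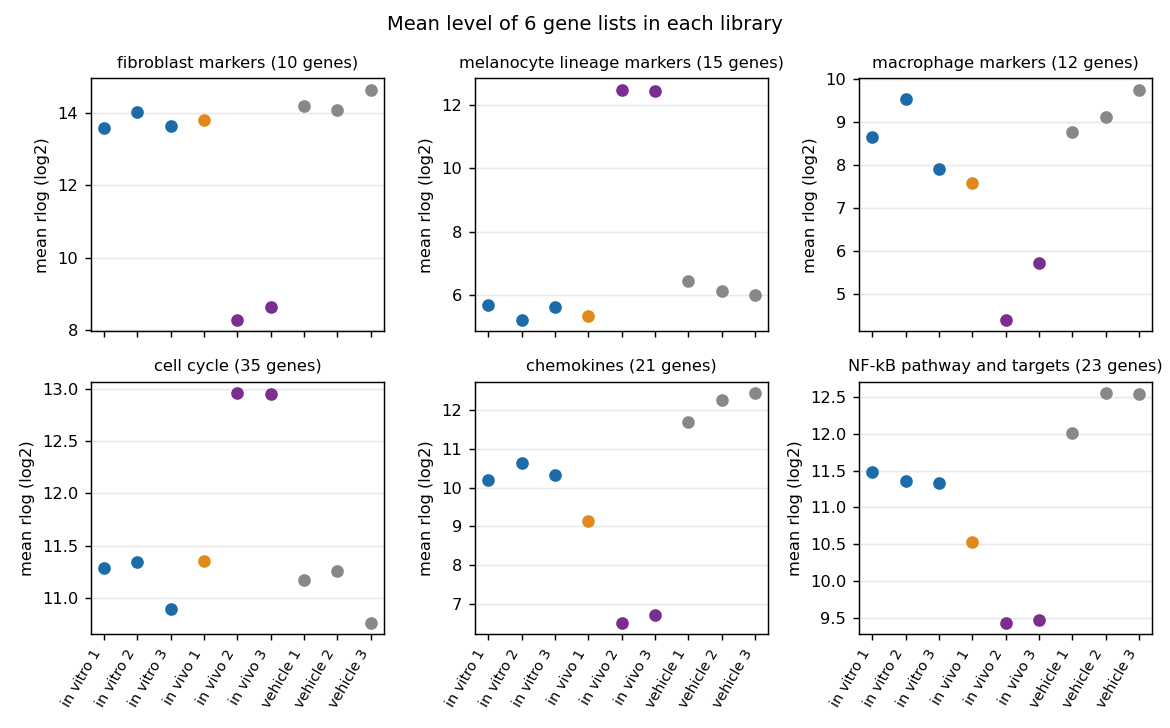
Each point is the mean rlog level (log2) of a gene list in 1 library, for the 3 in vitro, 3 in vivo and 3 primed vehicle libraries, with a separate scale for each of the 6 lists. In vivo library 1 sits with the in vitro libraries for fibroblast, melanocyte and cell cycle genes, at 13.81, 5.35 and 11.35, and below all 3 of them for chemokines and NF-kB genes, at 9.14 and 10.54.

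Promoters of 6 genes are shown, 4 of them separated between the routes in every library (Cxcl1, Cxcl2, Il6 and Nfkbia) and 2 of pigment enzymes (Tyrp1 and Tyr), whose levels set in vivo libraries 2 and 3 apart. Each is the 250 bases before the start of the gene, from RefSeq on GRCm38.p6. For Cxcl1, Cxcl2, Il6 and Nfkbia, capitals mark the matches to a form of the NF-kB motif, chosen after the values were seen. For the pigment enzymes Tyrp1 and Tyr, capitals mark CATGTG, the core of the E-box bound by the pigment cell factor MITF. Both strands were searched. Starts are those of RefSeq, which for Tyrp1 lies inside the GENCODE gene.
Cxcl1 (chr5:90890995-90891244, plus strand): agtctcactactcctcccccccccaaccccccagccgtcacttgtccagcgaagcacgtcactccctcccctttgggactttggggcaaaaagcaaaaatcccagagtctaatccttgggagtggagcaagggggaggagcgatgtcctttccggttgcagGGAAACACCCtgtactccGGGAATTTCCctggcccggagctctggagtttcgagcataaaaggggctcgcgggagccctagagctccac
Cxcl2 (chr5:90903649-90903898, plus strand): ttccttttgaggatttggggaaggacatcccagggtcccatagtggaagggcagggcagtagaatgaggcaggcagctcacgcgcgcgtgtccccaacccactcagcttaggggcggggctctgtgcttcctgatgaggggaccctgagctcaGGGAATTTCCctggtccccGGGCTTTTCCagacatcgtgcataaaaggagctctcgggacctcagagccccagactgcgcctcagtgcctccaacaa
Il6 (chr5:30012864-30013113, plus strand): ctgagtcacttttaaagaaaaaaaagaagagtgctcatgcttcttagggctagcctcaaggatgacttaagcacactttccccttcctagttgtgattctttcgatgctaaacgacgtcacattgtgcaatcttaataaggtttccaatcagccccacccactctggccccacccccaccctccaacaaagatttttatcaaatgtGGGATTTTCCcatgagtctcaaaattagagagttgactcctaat
Nfkbia (chr12:55492648-55492897, minus strand): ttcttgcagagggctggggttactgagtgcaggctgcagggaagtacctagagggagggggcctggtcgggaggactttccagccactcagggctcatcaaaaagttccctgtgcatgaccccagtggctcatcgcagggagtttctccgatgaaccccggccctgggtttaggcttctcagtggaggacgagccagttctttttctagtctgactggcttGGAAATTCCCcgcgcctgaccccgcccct
Tyrp1 (chr4:80833963-80834212, plus strand): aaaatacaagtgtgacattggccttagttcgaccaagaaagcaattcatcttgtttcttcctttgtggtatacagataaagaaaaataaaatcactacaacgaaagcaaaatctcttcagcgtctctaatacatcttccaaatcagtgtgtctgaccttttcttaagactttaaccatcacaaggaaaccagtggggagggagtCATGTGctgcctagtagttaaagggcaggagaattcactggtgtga
Tyr (chr7:87493513-87493762, minus strand): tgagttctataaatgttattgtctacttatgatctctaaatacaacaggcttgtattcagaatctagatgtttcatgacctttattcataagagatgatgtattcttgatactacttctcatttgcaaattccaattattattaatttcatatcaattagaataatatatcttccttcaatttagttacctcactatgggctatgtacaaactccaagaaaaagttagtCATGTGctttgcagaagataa
The first capital lies 89 and 71 bases before the start in Cxcl1, 97 and 78 in Cxcl2, 44 in Il6, 29 in Nfkbia, 46 in Tyrp1 and 21 in Tyr. This NF-kB form was present in 1.65% of all 27025 promoters in the table, 1.79% of the 11613 tested genes with a promoter there, and 7 of the 68 (10.3%) genes with a promoter there that stood apart between the routes in every library. CATGTG was present in 7 of the 10 melanocyte lineage markers with a promoter in the table, against 13.8% of all promoters. It was present in 9.28% of the tested genes with a promoter and in 16.2% of the 68 separated genes. The core of the interferon-stimulated response element was present in 12 of 26 interferon-stimulated genes (46.2%) and 3.46% of all promoters. It was present in 3.07% of the tested genes with a promoter and in 5.88% of the 68 separated genes. A match is a string of letters, and no binding was measured.

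The 3 in vivo libraries differed widely in their distance from the in vitro libraries. Each library was set against the mean of 2 in vitro libraries, and genes at least 1 log2 unit away were counted. The in vitro libraries gave 752, 600 and 1117 such genes against the mean of the other 2, which is 3.65% to 6.79% of genes. In vivo library 1 gave 603 to 863 (3.66% to 5.24%), inside that range. In vivo library 2 gave 5795 to 5981 (35.2% to 36.3%) and in vivo library 3 gave 5811 to 6002 (35.3% to 36.5%). The primed vehicle libraries stood between, at 2603 to 3486 genes (15.8% to 21.2%). By this count the in vivo library with few pigment transcripts was no farther from the in vitro libraries than these were from each other.

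**Figure D2:**
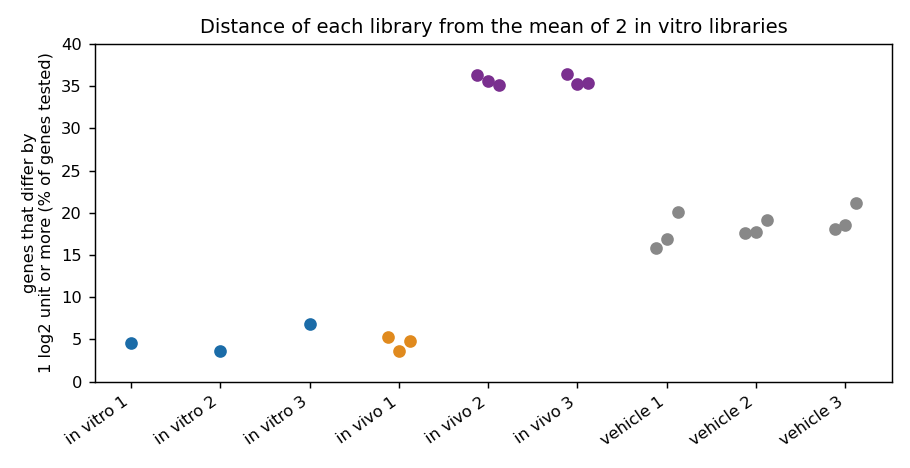
The vertical axis gives the percentage of the 16459 genes that differ by at least 1 log2 unit from the mean of 2 in vitro libraries, with 1 point for each pair used (1 pair for an in vitro library, 3 for the others). The in vitro libraries and in vivo library 1 lie between 3.65% and 6.79%, and in vivo libraries 2 and 3 between 35.2% and 36.5%.

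With the 3 in vivo libraries as 1 group, no gene passed the threshold, an adjusted p under 0.05 by limma with Benjamini-Hochberg adjustment (0% of 16459). The smallest adjusted p was 0.122. At an unadjusted p under 0.05, limma gave 5341 genes, 2984 higher and 2357 lower in vitro. Against in vivo library 1 alone no gene passed either (0%), the smallest adjusted p was 0.0949, and 268 genes had an unadjusted p under 0.05, of which 169 were higher in vitro. That contrast takes its spread from the other groups, since 1 library has none. Its genes with an unadjusted p under 0.05 were a smaller share than that threshold passes when no gene differs. Their direction is therefore not read as a result. Without in vivo library 1, the same 3 against 2 libraries gave 8085 calls.

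Genes that stood apart in every single library were therefore counted: those whose 3 in vivo values all lay at least 1 log2 unit from each of the 3 in vitro values. There were 109 such genes with lower values in vivo (0.662% of genes) and 1 with higher values (0.00608%). The 1 exception, Gria4, a subunit of AMPA glutamate receptors, was at 3.02, 2.74 and 3.41 in vitro and at 4.49, 5.70 and 5.70 in vivo. Among the 109 the median distance was 1.92 to in vivo library 1 and 3.57 to the mean of libraries 2 and 3, against -0.01 and 0.05 over all genes. In vivo library 1 lay between the in vitro libraries and both other in vivo libraries in 94 of the 109, and below both of the latter in 3. In 104 of the 109 the primed vehicle mean was above the in vitro mean, by at least 1 in 80 of them. The order was therefore vehicle, then in vitro, then in vivo in most of these genes. The 109 were picked by these 6 values, so their direction is a description and carries no test. They also passed a filter on the mean over all 12 libraries, which includes vehicle. The place of vehicle in the order is therefore a description too, and its share over all genes is not given here. With both directions counted, the number was 308 without in vitro library 1, of which 292 were lower and 16 higher in vivo. It was 232 without in vitro library 3 (204 lower and 28 higher), and 4485 without in vivo library 1 (3007 lower and 1478 higher).

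Several acute phase proteins, which innate immune signals induce in liver and stroma, were separated, and Lcn2 had the widest distance of the 109. Lcn2 (lipocalin 2, which captures bacterial iron carriers; chromosome 2, 32384633 to 32388252, minus strand) was at 15.14, 16.08 and 14.95 in vitro and at 11.44, 11.46 and 11.32 in vivo. All 3 in vivo libraries were alike, and the smallest distance between an in vitro and an in vivo library was 3.49. The difference in vitro minus in vivo was 3.98 ± 1.21 (SE) over all 3 in vivo libraries and 3.95 ± 1.78 against in vivo library 1. Against libraries 2 and 3 it was 4.0 ± 1.40 with an adjusted p of 0.039 by limma, a call lost when any 1 of the in vitro or of these in vivo libraries was left out, with adjusted p from 0.0652 to 0.144, and without primed vehicle library 2 or 3 (0.051 and 0.0535). The large error comes from all 12 libraries, whose vehicle groups spread more than these 6 did. Saa3, the serum amyloid A gene of inflamed stroma and macrophages, was at 14.31, 17.58 and 17.68 in vitro and at 11.64, 12.54 and 12.49 in vivo. Saa1 and Saa2 were separated too, but they are near-identical copies whose reads may have been divided between them.

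Cytokine genes were separated as well. Csf3, which encodes G-CSF, the growth factor of neutrophils (chromosome 11, 98701263 to 98703629, plus strand), was at 6.50, 5.96 and 6.36 in vitro and at 3.05, 1.37 and 1.11 in vivo. Its difference was 4.43 ± 0.67 over the 3 in vivo libraries and 5.04 ± 0.62 against libraries 2 and 3 (adjusted p = 1.82e-04, limma). The vehicle mean was 9.41. Il6, the pleiotropic cytokine that drives the acute phase (chromosome 5, 30013114 to 30019981, plus strand), was at 9.13, 10.06 and 11.94 in vitro and at 6.91, 5.18 and 5.36 in vivo. That is a difference of 4.57 ± 1.15, or 5.11 ± 1.27 against libraries 2 and 3 (adjusted p = 0.00841, limma; 0.0528 without in vivo library 2). All 6 values lay far under the vehicle mean of 14.98. Lif, a cytokine of the interleukin-6 family, was at 11.05, 11.05 and 12.47 against 9.45, 7.91 and 8.03. Tnfsf11, which encodes RANKL, the signal that makes osteoclasts, was at 7.67, 8.20 and 8.85 in vitro, at 6.51 in in vivo library 1, against 1.75 and 1.49 in libraries 2 and 3. It rose in vitro against the latter by 6.62 ± 0.57 (adjusted p = 3.08e-05, limma).

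Of 19 interleukins and colony-stimulating factors tested, 5 were separated by at least 1 in every library, against 0.662% of all genes. No overlap with lower values in vivo was seen in 9, against 11.6% of all genes. None showed no overlap in the other direction, where the share was 10.8% of all genes. In vivo library 1 alone was below every in vitro value in 10 of the 19, against 22.2% of all genes. Some members were low by both routes. Il1b, the cytokine that MSU crystals are best known to release, was at 1.63, 2.92 and 3.11 in vitro and 1.82, 1.91 and 1.23 in vivo, with a vehicle mean of 10.52. Csf2, which encodes GM-CSF, was at 2.28, 1.47 and 2.09 in vitro and 1.15, 1.44 and 0.64 in vivo, with a vehicle mean of 9.85. At such low rlog values differences are shrunk, so these 2 genes cannot rank the routes.

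Chemokines, the secreted proteins that call in leukocytes, were for the most part lower in vivo. Cxcl5, a neutrophil chemokine of stromal cells (chromosome 5, 90759360 to 90761624, plus strand), was at 15.30, 16.11 and 15.49 in vitro, at 13.21 in in vivo library 1, against 7.94 and 8.69 in libraries 2 and 3. It rose in vitro by 7.31 ± 1.35 against libraries 2 and 3 (adjusted p = 0.00172, limma), and over all 3 in vivo libraries the difference was 5.68 ± 1.55. Cxcl1, whose promoter is shown above, was at 14.52, 14.47 and 14.31 in vitro and at 12.50, 10.00 and 10.19 in vivo. The in vitro values of Cxcl1 were almost level, and the difference was 1.93 ± 0.61 against in vivo library 1 and 4.34 ± 0.48 against libraries 2 and 3 (adjusted p = 1.0e-04, limma). It is 1 of 3 genes, with Zc3h12a and Hba-a1, that limma called against in vivo library 1 when it was fitted to the 6 treated libraries only (adjusted p = 0.0274 for Cxcl1). Cxcl2, also shown above, was at 10.61, 10.13 and 10.10 in vitro and at 8.46, 6.10 and 6.49 in vivo.

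In all, 5 of 21 chemokines were separated in every library, namely Cxcl1, Cxcl2, Cxcl3, Cxcl5 and Ccl3, against 0.662% of all genes. No overlap with lower values in vivo was seen in 12 of the 21, against 11.6% of all genes. Against libraries 2 and 3, 17 rose in vitro and 2 fell (27.2% and 21.9% of all genes), with 11 and 2 called without in vivo library 2 and 10 and 1 without in vivo library 3. Their median difference was 1.31 against in vivo library 1 and 4.07 against libraries 2 and 3. Ccl2, the monocyte chemokine, missed the separation, with 15.92, 16.05 and 15.48 in vitro against 14.84, 10.36 and 10.78 in vivo.

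**Figure D3:**
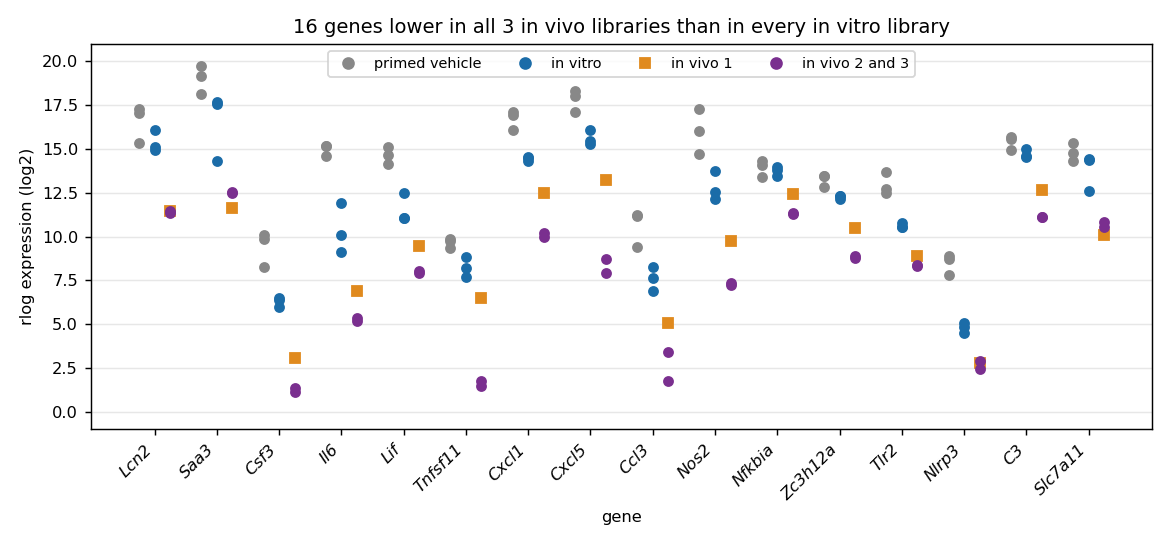
The rlog level (log2) of 16 genes is shown in the 3 primed vehicle, 3 in vitro and 3 in vivo libraries, 1 point per library. In every gene the 3 in vivo points lie at least 1 log2 unit below the 3 in vitro points, as in Lcn2, with 14.95 to 16.08 in vitro and 11.32 to 11.46 in vivo.

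Genes that act on or inside the NF-kB pathway were lower in vivo as well, inhibitors included. Nos2, the inducible nitric oxide synthase (chromosome 11, 78920787 to 78960254, plus strand), was at 12.16, 12.53 and 13.77 in vitro and at 9.73, 7.36 and 7.24 in vivo. The difference was 4.71 ± 1.08, or 5.52 ± 1.11 against libraries 2 and 3 (adjusted p = 0.00275, limma). Nfkbia, which encodes the inhibitor that holds NF-kB in the cytoplasm and is itself induced by NF-kB, was at 13.96, 13.78 and 13.47 in vitro and at 12.45, 11.36 and 11.29 in vivo. Zc3h12a, an RNase that cuts the messages of Il6 and other cytokines, was at 12.33, 12.33 and 12.12 in vitro and at 10.51, 8.89 and 8.80 in vivo. Of 23 genes of the NF-kB list, 17 showed no overlap with lower values in vivo, against 11.6% of all genes. Separated in every library were 6 (Nos2, Tnip3, Traf1, Nfkbia, Vcam1 and Ptgs2), against 0.662% of all genes. Ptgs2, the inducible cyclooxygenase, has an antisense partner, Ptgs2os, that was separated too, and without the strand setting of the counting their reads cannot be told apart. In vivo library 1 was below every in vitro library in 19 of the 23 and above in 1, where all genes gave 22.2% and 25.4%. The list's median difference was 0.69 against in vivo library 1 and 2.14 against libraries 2 and 3.

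Of 17 Toll-like and interleukin-1 receptors and their adaptors, which sit upstream of NF-kB, 10 had all in vivo values below all in vitro values (11.6% of all genes), and of 11 inflammasome genes 6 did and 1 had all above (10.8%). Against libraries 2 and 3, 10 and 5 of them rose in vitro (27.2%) and 1 fell in each list (21.9%). Aim2, a DNA sensor, was at 6.34, 6.74 and 6.62 in vitro, 6.72 in in vivo library 1, against 3.49 and 3.82 in libraries 2 and 3, so library 1 lay inside the in vitro range. Il1rl1, the receptor of interleukin 33, had the same order, with 12.56, 12.03 and 10.77 in vitro, 12.23 in in vivo library 1, against 5.63 and 6.02 in libraries 2 and 3. Tlr2, a receptor for bacterial lipoproteins, was at 10.53, 10.77 and 10.57 in vitro and at 8.89, 8.40 and 8.32 in vivo. Nlrp3, the sensor of the inflammasome that urate crystals trigger, was at 4.85, 5.05 and 4.48 in vitro and at 2.78, 2.46 and 2.89 in vivo, with a vehicle mean of 8.47. It rose in vitro against libraries 2 and 3 by 2.12 ± 0.48 (adjusted p = 0.0053, limma; 0.0518 without in vivo library 2). Genes outside these lists were separated in every library too. Acod1, the enzyme that makes itaconate in activated myeloid cells, was at 6.80, 6.97 and 6.81 in vitro and at 3.99, 3.36 and 4.09 in vivo. For Tlr2, Nlrp3 and Acod1, in vivo library 1 lay close to in vivo libraries 2 and 3. The in vivo values of Nlrp3 and Acod1 were low on the rlog scale, where differences are shrunk, so these 2 genes cannot rank the in vivo libraries. Complement C3, the central protein of the complement cascade, was at 14.58, 15.03 and 14.52 in vitro and at 12.64, 11.09 and 11.14 in vivo. Slc7a11, the cystine importer that feeds glutathione synthesis, was at 12.62, 14.43 and 14.37 in vitro and at 10.07, 10.54 and 10.81 in vivo.

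Transcripts of macrophages moved with these genes. The mean of the 12 macrophage markers tested, of 15 in the list, was 8.63, 9.53 and 7.89 in vitro, 7.58 in in vivo library 1, against 4.39 and 5.72 in in vivo libraries 2 and 3, and 8.77 to 9.73 in vehicle. Adgre1, which encodes F4/80, was at 10.64, 11.54 and 9.23 in vitro and at 7.99, 4.53 and 7.31 in vivo, and Cd14, the lipopolysaccharide co-receptor, was at 8.60, 9.36 and 8.93 against 7.26, 4.86 and 5.00. In 8 of the 12 markers the groups did not overlap, all with lower values in vivo, against 11.6% of all genes. No tested marker was at 0, Cd163 was near 0 in every library (-0.38 to 1.20 in the 6), and Lyz2 stood at 13.34 to 15.42 in vitro and 13.79 in in vivo library 1. Several of the 109 are genes of myeloid cells by textbook knowledge, among them Cybb, Ncf4, Marco, Cd52, Cd33, Msr1 and Mpeg1, named after their values were seen. The part of macrophage content in the cytokine and chemokine differences was not tested.

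Readouts of BET inhibition itself overlapped between the routes and stood above primed vehicle. Hexim1 encodes the inhibitor of P-TEFb and is a standard marker that goes up when BET proteins are blocked (chromosome 11, 103116231 to 103119725, plus strand). It was at 13.92, 14.13 and 13.85 in vitro and at 13.90, 14.23 and 14.18 in vivo, and at 12.39, 12.19 and 11.98 in primed vehicle. The 6 treated values overlapped and all lay above primed vehicle, and the difference between the routes was -0.13 ± 0.45. Brd2 was at 16.77, 16.70 and 16.47 in vitro and at 16.99, 16.00 and 16.02 in vivo, against a vehicle mean of 14.64. Its difference between the routes, 0.31 ± 0.38, changed sign to -0.11 under quantile normalization. Serpini1, another gene of the list that rises with BET inhibitors, was at 10.39, 10.93 and 10.77 in vitro and 10.33, 11.09 and 11.11 in vivo, with a vehicle mean of 9.42. Non-primed library 3, labelled vehicle, was as high as treated libraries in Hexim1 (14.26) and Serpini1 (11.18) and just under them in Brd2 (15.98), while non-primed libraries 1 and 2 were at 12.19 and 12.25 in Hexim1. None of these 3 genes was called in any of the 3 contrasts, which does not show that the routes acted alike on them.

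The rest of these lists were mixed. Of 13 BET and P-TEFb genes, none rose and 4 fell in vitro against libraries 2 and 3, where 27.2% and 21.9% of all genes did. The cyclins of P-TEFb, Ccnt1 and Ccnt2, fell by 0.59 and 0.63. In the list of 10 that rise with BET inhibitors, 3 rose and 1 fell, and 1 was called higher and 0 lower without in vivo library 2 or 3. Hist2h2be, a histone gene, was at 8.97, 8.93 and 8.91 in vitro, 9.38 in in vivo library 1, against 11.99 and 12.02 in libraries 2 and 3 (-3.07 ± 0.81, adjusted p = 0.011; 0.0592 and 0.0617 without in vivo library 2 or 3). Zcchc24 ran the other way, with 13.86, 14.19 and 13.73 in vitro, 14.13 in in vivo library 1, against 11.44 and 11.41 in libraries 2 and 3 (2.51 ± 0.15, adjusted p = 4.4e-06, limma). The median of the 10 was 0.38 against libraries 2 and 3 and -0.10 under quantile normalization. Myc, a classical BET-dependent gene in blood cancers, was at 12.04, 12.08 and 12.33 in vitro, 11.51 in in vivo library 1, against 10.49 and 10.49 in libraries 2 and 3, and at 12.09 in vehicle on average. It rose in vitro against libraries 2 and 3 by 1.66 ± 0.29 (adjusted p = 0.00129, limma).

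Interferon-stimulated genes differed among the in vitro libraries, and the lowest of these was at the in vivo level. These antiviral genes are switched on by interferon signalling. The mean of 36 of them was 7.52, 9.20 and 9.22 in vitro, 7.45, 7.32 and 7.36 in vivo and 10.87 to 12.02 in vehicle. In vitro library 1 was the lowest of the 3 in vitro libraries in 35 of the 36 genes, against 36.7% of all genes. The mean of in vitro libraries 2 and 3 exceeded in vitro library 1 by at least 1 in 26 of the 36 (72.2%), against 2.89% of all genes. The median difference between in vitro library 1 and in vivo library 1 was 0.03 in these 36 genes. In vitro libraries 2 and 3 lay above all 3 in vivo libraries in 28 of the 36, against 3063 of all 16459 genes. Vehicle lay above all 6 treated libraries in 34 of the 36, against 3081 of all genes.

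Isg15, a ubiquitin-like protein of the antiviral response, shows the pattern. It was at 7.96, 10.86 and 10.27 in vitro and at 8.35, 7.60 and 7.64 in vivo, so the groups overlapped through in vitro library 1. The difference against libraries 2 and 3 was 2.08 ± 1.19 (adjusted p = 0.177, limma; 0.0409 without non-primed library 3). Ifit3, which restrains viral RNA, was at 6.91, 9.38 and 9.57 against 7.43, 7.16 and 7.54. Against libraries 2 and 3, 7 of the 36 rose in vitro and 2 fell, where 27.2% and 21.9% of all genes did. The number that rose was 11 without in vitro library 1, 3 without in vitro library 2 or 3, 2 and 3 without in vivo library 2 or 3, and 18 without non-primed library 3. Gbp2, a guanylate-binding protein, was the 1 member separated in every library, with 11.27, 11.62 and 11.44 in vitro and 9.53, 8.35 and 8.52 in vivo (3.01 ± 0.74 against libraries 2 and 3, adjusted p = 0.00773; 0.0517 without in vivo library 2). Il1a was low in the same in vitro library, at 2.24, 5.35 and 7.48 in vitro against 2.77, 2.71 and 2.95 in vivo, and Saa3 and the chemokine Ccl5 (6.83, 11.29 and 12.00 in vitro) were too.

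**Figure D4:**
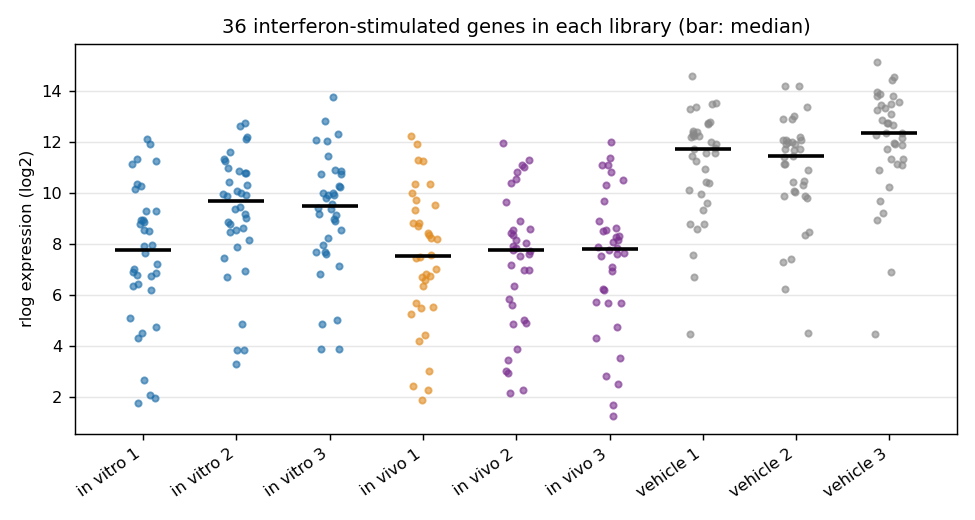
Points are the rlog levels (log2) of 36 interferon-stimulated genes in each library, and bars are medians. In vitro library 1 sits at the level of the 3 in vivo libraries, while in vitro libraries 2 and 3 lie between these and the primed vehicle libraries.

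Antigen presentation genes were lower in vivo almost without exception. Of 17 genes of MHC class I presentation, which displays peptides to T cells, 16 had all in vivo values below all in vitro values, against 11.6% of all genes, and none was separated by 1. B2m, the light chain of every class I molecule, was at 15.92, 16.50 and 17.55 in vitro and at 15.80, 14.73 and 14.83 in vivo. Psmb8, a subunit of the immunoproteasome, was at 7.08, 8.33 and 9.05 in vitro and at 6.32, 3.01 and 4.67 in vivo, and rose in vitro against libraries 2 and 3 by 4.31 ± 1.10 (adjusted p = 0.00959, limma; 0.0908 without in vivo library 2). The exception, H2-Q7, was at 6.54, 6.80 and 9.69 against 6.79, 3.78 and 4.15. The list's median difference was 0.97 against in vivo library 1 and 2.19 against libraries 2 and 3. In vitro library 1 had the lowest in vitro value in each of these 3 genes.

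NRF2 is the transcription factor that answers oxidative stress. Of 16 of its targets, 12 had all in vivo values below all in vitro values, and in vivo library 1 was below every in vitro value in 14, against 11.6% and 22.2% of all genes. Nqo1, a quinone reductase, was at 14.33, 16.01 and 15.83 in vitro and at 14.13, 11.98 and 12.34 in vivo (3.23 ± 0.51 against libraries 2 and 3, adjusted p = 7.27e-04, limma). Hmox1, haem oxygenase, was at 16.96, 16.22 and 16.98 in vitro, 16.98 in in vivo library 1, against 13.33 and 13.50 in libraries 2 and 3 (3.30 ± 0.44, adjusted p = 2.71e-04, limma), so in vivo library 1 did not lie below the in vitro values. Slc7a11, given above, was 3.74 ± 1.29 higher in vitro than in in vivo library 1, and its call against libraries 2 and 3 (3.13 ± 1.02, adjusted p = 0.0284) was lost without in vitro library 2 or 3 or in vivo library 2 or 3, with adjusted p from 0.0777 to 0.127.

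Matrix genes as a list were not lower in in vivo library 1 than in vitro. Their shares above and below the in vitro range were not far from those of all genes, given below. Col1a1, the main chain of type I collagen, was at 18.67, 18.79 and 17.59 in vitro and 18.39 in in vivo library 1, a difference of -0.04 ± 1.5. Thy1, a surface marker of sublining fibroblasts, was at 14.66, 14.41 and 13.58 in vitro and 15.08 in in vivo library 1. Prg4, which encodes the joint lubricant lubricin and marks lining cells, was at 16.82, 16.46 and 16.40 in vitro. It was lower in in vivo library 1, at 16.09. The median of 41 collagen and matrix genes was -0.29 against in vivo library 1, with 6 genes below and 11 above every in vitro value. Of 19 contractile myofibroblast genes, in vivo library 1 was above every in vitro value in 10 and below in 3, and of 25 glycolysis and hypoxia genes above in 13 and below in 0. Of 15 Hox and limb identity genes, which keep the position of a cell along the limb, it was below every in vitro value in 7 and above in 3. The shares over all genes were 25.4% above and 22.2% below. Among 35 cell cycle genes it was above in 14 and below in 1.

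**Figure D5:**
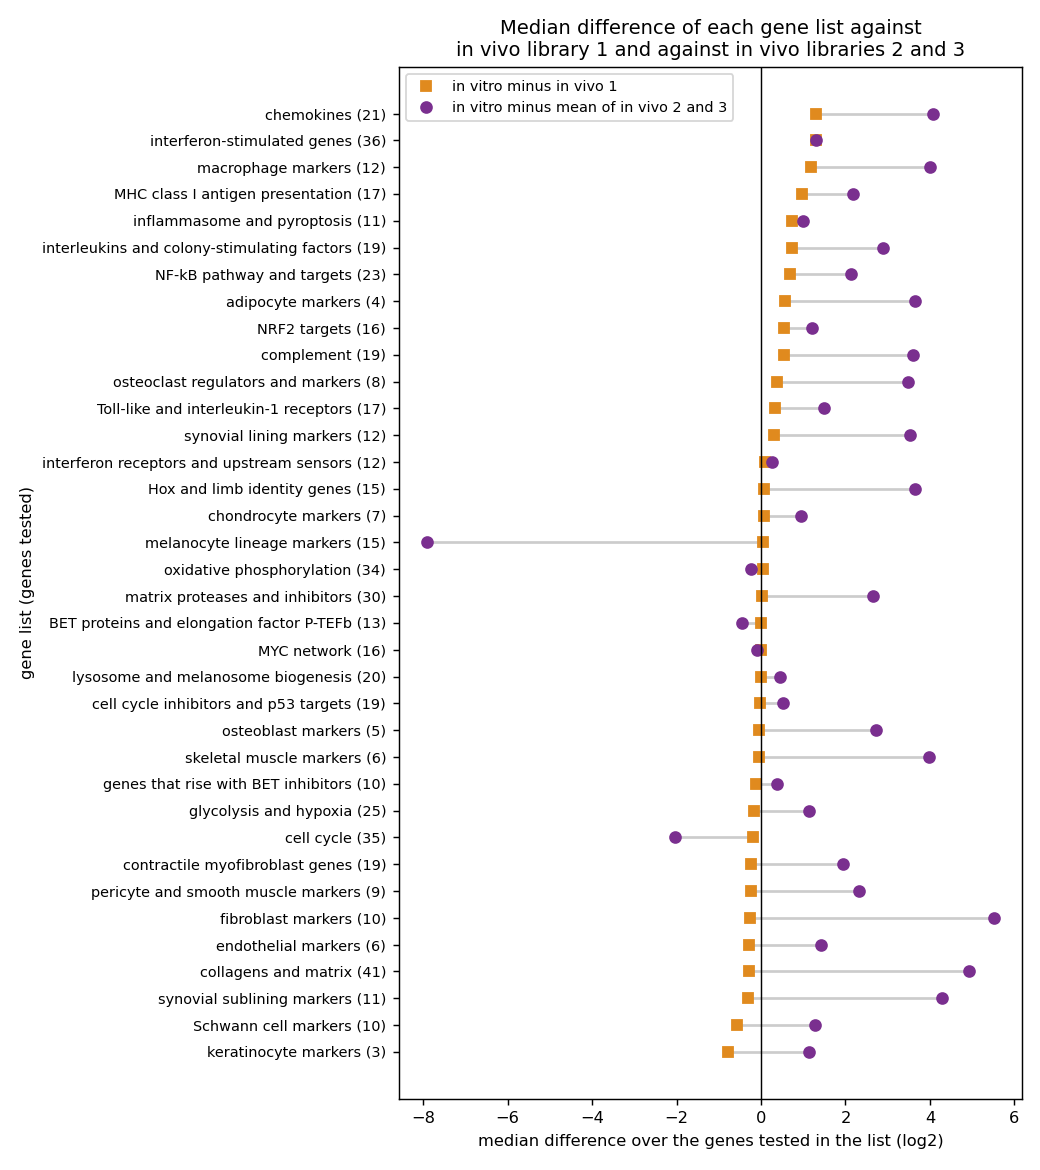
Each row is a gene list with at least 3 tested genes, with its number of tested genes in brackets, and the horizontal axis is the median difference in log2 units, positive where the in vitro libraries were higher. Chemokines have medians of 1.31 and 4.07 in the comparisons with in vivo library 1 and with libraries 2 and 3, fibroblast markers -0.26 and 5.52, and melanocyte markers 0.05 and -7.90, and both comparisons share the in vitro libraries.

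The comparison with in vivo libraries 2 and 3 called 8087 genes, 4479 higher in vitro (27.2%) and 3608 lower (21.9%). Quantile normalization gave 3777 higher and 4949 lower, so the balance of directions depends on the scaling. Without in vivo library 2 the calls were 5226, and without in vivo library 3 they were 5296. The libraries had been divided with their pigment genes known, so marker values here describe that division. Pigment genes fell in vitro: Tyrp1, which stabilises the melanin-making enzymes and whose promoter is shown above (chromosome 4, 80834123 to 80851719, plus strand), was at 6.10, 5.80 and 5.47 in vitro, 3.98 in in vivo library 1, against 17.45 and 17.44 in libraries 2 and 3 (-11.66 ± 0.31, adjusted p = 3.76e-08, limma). Mitf, the master regulator of the lineage, was at 10.61, 10.69 and 10.89 in vitro, 10.31 in in vivo library 1 and 14.32 in both others. Of 15 lineage markers 14 fell in vitro. The single exception, Ednrb, the endothelin receptor of melanocyte precursors, was at 5.80, 6.02 and 8.30 in vitro and at 7.06, 4.22 and 4.70 in vivo. Rab38, which carries enzymes to the pigment organelle, fell by 6.11 in vitro.

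Fibroblast programmes ran opposite to pigment genes in the same 2 libraries. Col1a1 was at 11.80 and 12.36 in libraries 2 and 3, and rose in vitro by 6.27 ± 1.19 (adjusted p = 0.00201, limma). Thy1 was at 8.01 and 8.30 there (6.07 ± 1.20, adjusted p = 0.0025). Of 41 collagen and matrix genes 35 rose in vitro and none fell, where 27.2% and 21.9% of all genes did. Some of these calls were lost without in vivo library 2. Acta2, smooth muscle actin, rose by 6.11 ± 1.2 and Timp1, an inhibitor of matrix proteases, by 5.16 ± 0.55 (adjusted p = 0.00294 and 8.68e-05, limma). Prg4 rose by 4.57 ± 1.36 (adjusted p = 0.0193), a call lost without either in vivo library, with adjusted p of 0.087 and 0.0879. Positional genes were among those that rose. Of 15 Hox and limb identity genes 13 rose and 2 fell, against 27.2% and 21.9% of all genes. Hoxa13, which marks the most distal limb, was at 11.12, 11.30 and 10.80 in vitro, 11.10 in in vivo library 1, against 6.34 and 6.51 in libraries 2 and 3.

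Cell cycle genes formed the other large block. Of 35, none rose and 31 fell in vitro against libraries 2 and 3, where 27.2% and 21.9% of all genes did. Nearly all of these calls were kept without either of these libraries. Mki67, the proliferation antigen Ki-67, was at 13.04, 12.88 and 12.31 in vitro, 13.10 in in vivo library 1, against 15.36 and 15.43 in libraries 2 and 3 (-2.65 ± 0.20, adjusted p = 1.81e-05, limma). Cdk2, a kinase of S phase entry whose gene adjoins the pigment gene Pmel, was at 11.27, 11.22 and 11.38 in vitro, 11.33 in in vivo library 1, against 15.04 and 14.99 in libraries 2 and 3. Of 34 oxidative phosphorylation genes 17 fell and 1 rose in vitro, where 21.9% and 27.2% of all genes did. Fewer were called lower without in vivo library 2 or 3. Of 25 glycolysis and hypoxia genes 16 rose, against 27.2% of all genes, but most of these calls were lost without in vivo library 2 or 3. Ppargc1a, a coactivator of mitochondrial biogenesis, was at 5.01, 5.19 and 6.31 in vitro, 5.24 in in vivo library 1, against 10.86 and 10.85 in libraries 2 and 3. The shift in these lists coincided with the pigment transcripts, and its part due to the cells present cannot be told apart from that due to the drug.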

How the data were processed

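Polyadenylated RNA of 12 libraries was sequenced with a stranded kit, per the labels' protocols. The submitters' processing notes name cutadapt 1.18, STAR 2.6.1c, featureCounts of Subread 1.6.1, DESeq2 1.24.0 and the build GRCm38. Their settings, and the strand mode of the counting, were not given in the sources used here. In the deposited table stand the authors' log2 values (rlog), from -2.24 to 20.6, which shrink differences of weakly expressed genes.

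A model was fitted to the 12 libraries with limma 3.58.1 in R 4.3.3 (lmFit, eBayes with a variance trend), with 1 mean per group, or with in vivo library 1 apart from libraries 2 and 3. Adjusted p is two-sided, by Benjamini-Hochberg over 16459 genes, called under 0.05; ± is 1 SE. Rose, fell and called refer to this threshold. Genes with values given were taken by a rule: the 8 widest separations each way, up to 3 genes per list by called difference and by separation, and 32 fixed genes, of which 2 are not reported here; others were added after their values were seen (Hba-a1, Cxcl10, Zc3h12a, Ccl5, Saa3, Cxcl2, Nfkbia, Ptgs2os, B2m, Ednrb, Hba-a2, Tmem176a, Tmem176b, Dkk2 and the myeloid genes). The 37 gene lists, the members and the division of the in vivo libraries were chosen with earlier results of these data known. Coordinates are GENCODE M21 on GRCm38. The fit was tested on simulated data in which in vivo library 1 did not differ from libraries 2 and 3. That simulation therefore cannot tell how many differences the fit with 1 mean per group would miss in these data. Scaling, filters, variance models, sets of libraries and the replicate number as a block were varied.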

Additional observations from a re-analysis of the deposited data

How the results depend on the processing

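Leaving out single libraries gave 0 to 8085 calls for in vitro against all in vivo libraries, 0 to 1 against in vivo library 1, 5226 to 9851 against libraries 2 and 3, and 115 to 4485 genes separated in every library. The extremes came without in vivo library 1 (8085 and 4485), in vivo library 2 (5226 and 115), and non-primed library 3 (9851). With no filter on low values, 1 gene (Six3os1) was called against all in vivo libraries and 61 against in vivo library 1 (3 higher, 58 lower in vitro), and with only the 6 treated libraries 3 were called against the latter. Hba-a1 without primed vehicle library 2 and Tmem176b without in vitro library 1 were the single calls there. A gap of 0 gave 3692 genes, a gap of 2 gave 10, and in vivo library 1 alone on its side, added after the data were seen, gave 200 (158 lower and 42 higher in vivo). Other settings kept these counts within 1.5 times. Same-numbered libraries did not deviate together from their group means (correlations of -0.04, -0.11 and 0.04). The in vivo deviations include the distance of library 1 from libraries 2 and 3, so they cannot decide whether the numbers pair libraries. With the replicate number as a block, 7196 genes were called against libraries 2 and 3, and 0 in the other 2 contrasts. Of 48 gene differences in the text, Brd2 reversed under quantile normalization (-0.11) and Col1a1 against in vivo library 1 with the replicate block (0.23) and without in vitro library 3 (leaving out single libraries gave -0.26 to 0.34); the cause was not tested. Of 1005 gene values under alternatives, 952 kept direction and side of the threshold. Depth is unknown, so no limit of detection can be given.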

Other observations

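Hba-a1, an alpha globin chain of red blood cells, was low in in vivo library 1 alone. It was at 8.21, 7.62 and 7.70 in vitro, 2.44 in in vivo library 1, against 7.01 and 7.15 in in vivo libraries 2 and 3. The difference in vitro minus in vivo library 1 was 5.40 ± 0.60 with an adjusted p of 0.0949 (limma), the smallest of that contrast, and the adjusted p was 0.0274 in a fit of the 6 treated libraries. Its near-identical copy Hba-a2 was at -1.0 or lower in these 6 libraries, so the division of reads between the copies is uncertain.

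Cxcl10, a chemokine that interferon induces, took opposite sides of the in vitro libraries. It was at 9.06, 8.87 and 8.88 in vitro, 7.42 in in vivo library 1, against 10.44 and 10.55 in in vivo libraries 2 and 3. The difference was 1.52 ± 0.21 against library 1 (adjusted p = 0.268, limma) and -1.56 ± 0.16 against libraries 2 and 3 (adjusted p = 7.69e-05). Tmem176b behaved likewise against library 1, with 12.48, 13.34 and 13.42 in vitro, 11.24 in in vivo library 1, against 13.25 and 13.16 in libraries 2 and 3, and its neighbour Tmem176a was at 12.13, 12.92 and 12.89, then 10.88, 11.45 and 11.40. Dkk2, a secreted WNT antagonist, was higher in in vivo library 1, at 10.11 against 8.36, 7.92 and 8.41 in vitro and 4.02 and 4.23 in libraries 2 and 3. These genes were picked after their values were seen.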
